A study of Capra hircus with 6 samples.

Results

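The genes analysed here encode the voltage-gated ion channels and the potassium channels of the goat hypothalamus. Every gene of the mRNA table was taken whose goat symbol begins with KCN and a family letter, with SCN and a number, or with CACNA, CACNB or CACNG, together with the 4 HCN genes, which gave 130 of the 20225 genes in the table. The rule uses names only and no measured value. A further 4 goat symbols meet it (CACNG4, CACNG8, KCNE5 and KCNK13) but have no values here, and no goat gene carried the symbol SCN1A or CACNA1H in the gene names used. The 130 genes comprise 177 annotated transcripts of 477 to 11339 nt, with 1 transcript for 105 genes and up to 6 for the other 25.

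Voltage-gated sodium and calcium channels open when a neuron is depolarized and carry the upstroke of the action potential and the calcium entry that releases transmitter and hormone. Potassium channels of several families repolarize the membrane, set its resting level and pace repeated firing, and the HCN channels carry an inward current that drives rhythmic activity. Beside the pore-forming subunits, auxiliary subunits set how many channels reach the membrane and how they gate. In the hypothalamus these channels shape the firing of the neurons that secrete gonadotropin-releasing hormone (GnRH), and with it the pulses of that hormone whose increase accompanies puberty.

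The study compared the hypothalamus of 3 pubertal female Anhuai goats, 4.5 to 5.0 months old and, according to its methods, in the late follicular phase of the cycle, with that of 3 prepubertal females of the same breed, 2.5 to 3.0 months old. One library of RNA depleted of ribosomal RNA was made from each goat, so that age and stage cannot be told apart, and p-values measure the spread between these 6 goats. Levels are in FPKM, fragment numbers corrected for transcript length and for how many fragments mapped in the library, summed over the transcripts of a gene, and the number of fragments behind each value is unknown. In bulk tissue, fewer cells of a type and less RNA per cell cannot be told apart.

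The markers of the tissue were checked first. SIM1 and OTP, transcription factors of the hypothalamus, were detected in all 6 libraries, SIM1 at 3.03 to 4.11 FPKM. AVP was listed at 0 in all 6. The feeding peptide genes varied widely. AGRP had 22.7, 5.69 and 28.3 FPKM in the pubertal and 97.5, 175.8 and 22.3 in the prepubertal libraries. POMC had 34.4, 85.1 and 428.6 against 47.4, 22.9 and 24.3. Both overlapped between the stages, with unadjusted limma p of 0.024 and 0.047 and adjusted p of 0.883 and 0.959. The summed level of 5 neuronal markers, of 6 listed, lay between 1255 and 1445 FPKM in the pubertal libraries. In the prepubertal libraries it lay between 1459 and 1612, so the sums did not overlap. Taken singly, each of the 5 overlapped between the stages, and none had an unadjusted p under 0.05 in limma. SNAP25, for example, had its highest value in pubertal replicate 1. Markers of the anterior pituitary summed to 51.8 to 64.9 FPKM in the pubertal and 3.05 to 19.8 in the prepubertal libraries. Of the 5 listed, 4 had values, and CGA held most of the sum, at 50.07, 62.5 and 39.4 FPKM against 2.24, 17.99 and 3.32. TSHB, at 2.46, 2.33 and 4.04 FPKM against 0.724, 1.84 and 0, did not overlap either. GH1 was above 0 only in pubertal replicate 3 (7.79 FPKM), and POU1F1 overlapped between the stages. The summed markers of astrocytes (4201 to 4548 against 4304 to 4469) overlapped. A transcript of NKD2 of 150 nt took between 21.4% and 52.7% of the summed FPKM of a library, and choroid plexus markers reached 317 FPKM in pubertal replicate 3 against 5.47 to 57.4 in the other 5 libraries. The part of these differences in the values of the channel genes was not tested, except where a value is given beside a result.

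Most of the channel genes were detected. None of the 130 was listed at 0 in every library, 110 were above 0 in all 6, and 111 reached the mean of 0.1 FPKM over the 6 libraries that was required for testing. A mean of at least 1 FPKM was reached by 101 genes, at least 10 by 32 and at least 50 by 3. The 19 genes under the minimum include channels known from muscle, retina, kidney and sensory ganglia, such as SCN4A, SCN10A, CACNA1F, CACNG1 and KCNJ1. The median level of the 111 tested genes was 5.64 FPKM, against 9.78 for all 16397 genes tested.

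The summed level of the 130 genes differed little between goats. It was 1169, 1168 and 1109 FPKM in pubertal replicates 1 to 3 and 1209, 1156 and 1216 in prepubertal replicates 1 to 3, with a coefficient of variation (CV, the SD as a percentage of the mean) of 3.33% over the 6 libraries. The ranges of the stages overlapped. The 10 most abundant genes held 39.2% of this sum.

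By class, the pore-forming subunits of voltage-gated potassium (Kv) channels ranked first, with 245.5 ± 11.3 FPKM (SD, n = 6) and 21.0% of the channel sum over 39 genes. Accessory Kv subunits followed with 170.3 ± 6.98 FPKM over 11 genes, and the 4 sodium channel beta subunits came next with 158.5 ± 19.3. The 9 sodium channel pore subunits summed to 130.0 ± 11.7 FPKM and the 15 inward rectifiers to 104.5 ± 8.03. The beta and pore subunits of sodium channels together thus lay above the Kv pore subunits alone, from far fewer genes. They lay under the Kv pore and accessory subunits together. Within the calcium channel complex, the 4 alpha2delta subunits summed to 87.4 ± 7.81 FPKM and the 4 beta subunits to 71.3 ± 3.89, whereas the 8 pore subunits reached 28.1 ± 2.82. The two-pore-domain leak channels summed to 70.1 ± 5.49 FPKM, the calcium- or sodium-activated potassium channels to 59.5 ± 3.53, the HCN channels to 28.8 ± 3.22 and the calcium gamma subunits to 17.3 ± 0.814. FPKM are scaled by transcript length, so these sums compare levels per length between classes of different gene size. The HCN and calcium pore classes, the calcium beta and two-pore-domain classes, and the Kv accessory and sodium beta classes lay within the spread of each other over the 6 libraries, and sodium beta subunits were above Kv accessory subunits in prepubertal replicates 1 and 3.

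**Figure D1:**
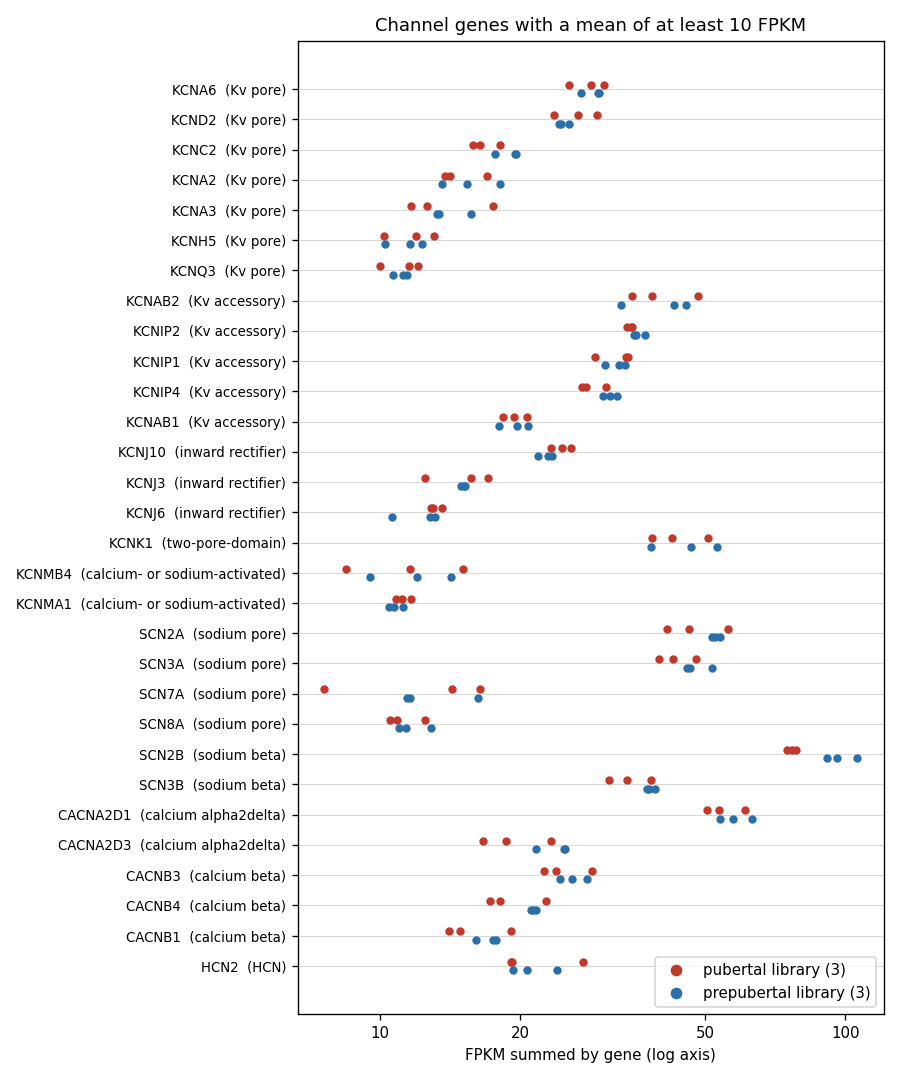
FPKM summed by gene (log axis) of 30 of the 32 channel genes with a mean of at least 10 FPKM, grouped by class, with 1 point for each of the 3 pubertal (red) and 3 prepubertal (blue) libraries. The points of both stages lie over each other in nearly every gene, and SCN2B is the most abundant gene, with all 3 pubertal points left of all 3 prepubertal points.

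Among the sodium channel pore subunits, SCN2A and SCN3A were the most abundant. SCN2A, an axonal channel of principal neurons, had 55.9, 46.2 and 41.3 FPKM in the pubertal and 52.5, 53.8 and 51.7 FPKM in the prepubertal libraries. SCN3A, known as the channel of the developing brain, had 47.8, 42.7 and 39.9 FPKM in the pubertal and 46.3, 51.8 and 45.6 in the prepubertal libraries. For both genes, pubertal replicates 2 and 3 were under the lowest prepubertal value and pubertal replicate 1 was within the prepubertal range or above it. The ratio of SCN2A to SCN3A was 1.10 ± 0.0666 (SD, n = 3) for the pubertal goats and 1.10 ± 0.0551 for the prepubertal ones, so their proportion was alike within this spread. SCN8A, the channel of mature initial segments and nodes, had a mean of 11.5 ± 0.953 FPKM (SD, n = 6) and SCN9A, a channel found in hypothalamic neuroendocrine cells as well as in sensory neurons, 8.19 ± 0.907, and both ranges overlapped between the stages. SCN11A, known from sensory neurons, stood at 0.223 ± 0.0488 FPKM.

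SCN7A, a sodium-sensing channel of glia in the organs that monitor body fluids, varied more than the neuronal pore subunits. It had 16.4, 7.59 and 14.3 FPKM in the pubertal and 16.2, 11.6 and 11.4 in the prepubertal libraries, a CV of 26.2% without any order by stage. Its signal was also assigned to different transcripts in different goats. The transcript XM_013969211.1 took 58.2%, 5.16% and 56.1% of the gene in the pubertal libraries and 57.0%, 9.42% and 2.09% in the prepubertal ones, so that 3 libraries used it for most of the gene and 3 for little, with both stages in each set.

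The sodium channel beta subunits include the gene with the lowest adjusted p-value of the 111 channel genes tested. SCN2B, an adhesion-type subunit that raises the density of sodium channels at the membrane, was the most abundant channel gene of the hypothalamus, with 74.96, 78.5 and 76.8 FPKM in the pubertal and 106.1, 91.3 and 96.0 FPKM in the prepubertal libraries. Every pubertal library lay under every prepubertal one. The pubertal mean was 76.8 ± 1.79 and the prepubertal mean 97.8 ± 7.54 FPKM (SD, n = 3 each), and limma gave a log2 fold change of -0.34 (SE 0.09) with an adjusted p of 0.741. The gene therefore did not pass the threshold of 0.05 over the 16397 genes tested. Its level rests on 1 annotated transcript of 816 nt.

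Since the sum of the neuronal markers was lower in the pubertal libraries too, though each marker alone overlapped, SCN2B was set against that sum and against SNAP25. Per 100 FPKM of summed neuronal markers it had 5.20, 5.44 and 6.12 FPKM in the pubertal and 6.58, 6.26 and 5.97 in the prepubertal libraries, and these ranges overlapped. Per 100 FPKM of SNAP25, a synaptic gene, it had 13.5, 15.9 and 16.5 against 19.4, 19.1 and 17.6, without overlap. Every library was also scaled to an equal sum of neuronal markers, a setting chosen after the values were seen. The log2 fold change of SCN2B was then -0.17 with an adjusted limma p of 0.519. This scaling multiplies all genes of a library by the same factor, and it moved the median of all genes to 0.15. Relative to that median SCN2B stood at -0.31, near its unscaled -0.34 by construction, so this value is no separate result on neuronal content.

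The beta subunits SCN3B and SCN4B showed no such separation. SCN3B had 38.1, 33.9 and 31.1 FPKM in the pubertal and 37.8, 37.4 and 38.9 in the prepubertal libraries, and SCN4B ranged from 3.96 to 11.3 FPKM, with both its lowest and its highest value in prepubertal goats. SCN4B lies next to SCN2B in the RefSeq gene order, and its log2 fold change had the opposite sign (0.19).

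Among Kv pore subunits, KCNA6, of the Shaker-related family, and KCND2, which carries the transient A-type current, were the most abundant. KCNA6 had 28.5, 30.3 and 25.5 FPKM in the pubertal and 29.5, 27.0 and 29.5 in the prepubertal libraries, and KCND2 29.2, 26.6 and 23.7 against 24.2, 25.4 and 24.5. Both overlapped between the stages, with the prepubertal values inside the pubertal range for KCND2. KCNQ3, a subunit of the M-current that restrains repetitive firing, had a mean of 11.1 ± 0.725 FPKM (SD, n = 6), with overlapping stages. KCNC2 of the fast-spiking Kv channels had 17.8 ± 1.55 FPKM and its relative KCNC1 5.63 ± 0.877. The axonal subunits KCNA2 and KCNA1 stood at 15.3 ± 1.87 and 8.33 ± 1.87 FPKM, again with overlapping stages.

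KCNA4, which forms a rapidly inactivating A-type channel, had 6.80, 7.001 and 5.47 FPKM in the pubertal and 8.20, 7.44 and 8.39 FPKM in the prepubertal libraries. All pubertal values were under all prepubertal values. The means were 6.42 ± 0.833 and 8.01 ± 0.504 FPKM (SD, n = 3 each), with a log2 fold change of -0.28 (SE 0.12) and an adjusted limma p of 0.959. Per 100 FPKM of summed neuronal markers KCNA4 had 0.472, 0.484 and 0.436 FPKM in the pubertal and 0.509, 0.510 and 0.521 in the prepubertal libraries, which did not overlap. With libraries scaled to those markers its log2 fold change was -0.13 (adjusted limma p 0.622). Relative to the median of all genes it was -0.28, which by construction is near the unscaled value.

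The accessory Kv subunits were dominated by KCNAB2, a cytoplasmic beta subunit of Shaker-related channels, and by the KCNIP proteins, calcium-binding partners of the A-type KCND channels. KCNAB2 had 38.4, 48.2 and 34.8 FPKM in the pubertal and 42.8, 33.0 and 45.6 in the prepubertal libraries, with an equal mean of 40.5 FPKM in both stages. KCNIP2 (35.2 ± 1.09 FPKM; SD, n = 6), KCNIP1 (32.3 ± 2.101) and KCNIP4 (29.9 ± 2.02) each lay above KCND2, the most abundant of their pore partners, in mean level. KCNIP2 had the lowest CV of all channel genes with a mean of at least 1 FPKM, 3.08%. The single-span KCNE subunits were low, with KCNE4 at 1.11 ± 0.225 FPKM and KCNE2, an epithelial subunit abundant in choroid plexus, at 0 to 0.429.

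Of the accessory subunits with a mean of at least 1 FPKM, KCNE3 had the widest spread, a CV of 78.0%, and is named for that spread, seen after its values were known. It had 0.559, 2.55 and 1.60 FPKM in the pubertal and 0.614, 1.12 and 0.183 FPKM in the prepubertal libraries, which overlapped, with a log2 fold change of 0.61 (SE 0.31) and an adjusted limma p of 0.962. Its transcripts are only 477 to 499 nt long.

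Inward rectifiers were led by KCNJ10, the potassium-buffering channel of astrocytes, with 23.3, 24.6 and 25.7 FPKM in the pubertal and 21.9, 22.9 and 23.4 in the prepubertal libraries. Its astrocytic partner KCNJ16 stood at 8.43 ± 0.895 FPKM (SD, n = 6), and both overlapped between the stages. The G-protein-gated channels that mediate inhibition by transmitters and peptides, KCNJ3, KCNJ6 and KCNJ9, had 15.1 ± 1.48, 12.7 ± 1.05 and 9.63 ± 0.988 FPKM. The pores of the ATP-sensitive channels, which couple metabolism to firing, were KCNJ8 at 6.92 ± 1.39 and KCNJ11 at 4.97 ± 0.855 FPKM. Each was above its regulatory subunit in all 6 libraries, ABCC9 (4.94 ± 0.823) for KCNJ8 and ABCC8 (3.15 ± 0.638) for KCNJ11. All of these overlapped between the stages.

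KCNJ12, a strongly rectifying channel that holds the resting potential, had 3.54, 4.18 and 4.51 FPKM in the pubertal and 3.44, 2.58 and 2.80 FPKM in the prepubertal libraries. Every pubertal value was above every prepubertal value, though pubertal replicate 1 and prepubertal replicate 1 lay close together. The means were 4.08 ± 0.495 and 2.94 ± 0.449 FPKM (SD, n = 3 each), and the log2 fold change of 0.37 (SE 0.13) had an adjusted limma p of 0.883. KCNJ12 has a near-identical copy in some mammals, and whether reads were split between copies is unknown here, so that its level is uncertain.

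KCNJ13, a channel of choroid plexus and other transporting epithelia, had the widest spread of all tested channel genes with a mean of at least 1 FPKM (CV 139%). It had 1.58, 1.86 and 14.4 FPKM in the pubertal and 1.70, 1.54 and 1.43 FPKM in the prepubertal libraries. One library, pubertal replicate 3, stood far above the other 5, and without it the log2 fold change went from 0.92 (SE 0.60, adjusted limma p 0.962) to 0.09. The same library had 309.0 FPKM of TTR, the transthyretin gene that marks choroid plexus, against 6.95 and 1.14 in the other pubertal and 53.4, 11.9 and 3.88 in the prepubertal libraries. KCNE2 was also highest there, at 0.429 FPKM, but was listed at 0 in pubertal replicate 2 and prepubertal replicate 2. Prepubertal replicate 1, second in TTR, had a KCNJ13 level inside the range of the 4 remaining libraries.

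**Figure D2:**
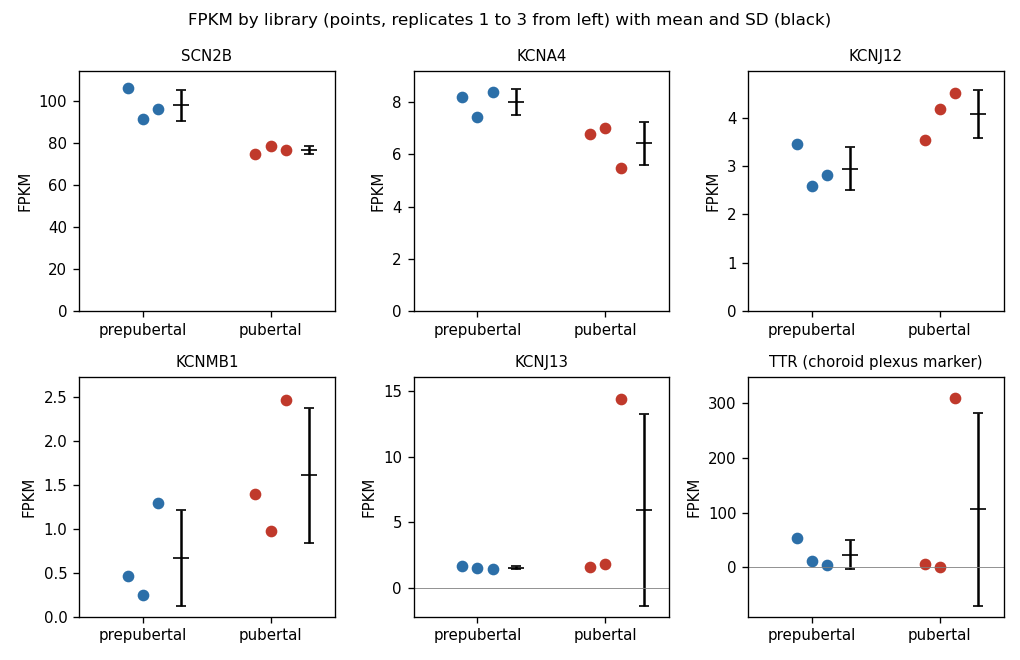
FPKM by library for SCN2B, KCNA4, KCNJ12, KCNMB1, KCNJ13 and the choroid plexus marker TTR, with prepubertal goats in blue, pubertal goats in red, replicates 1 to 3 from left to right and the mean with its SD in black (n = 3). In these FPKM, SCN2B, KCNA4 and KCNJ12 separate the stages, KCNMB1 overlaps, and in KCNJ13 and TTR the pubertal mean is carried by replicate 3 alone. KCNA4 and KCNJ12 overlapped after the libraries were rescaled without the most abundant transcript.

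Of the two-pore-domain channels, which give neurons and glia their background potassium leak, KCNK1 was by far the most abundant. It had 50.7, 38.4 and 42.4 FPKM in the pubertal and 53.0, 38.2 and 46.6 in the prepubertal libraries, and next came KCNK2, a channel opened by stretch, heat and lipids, with 7.99, 6.65 and 11.1 against 7.91, 8.09 and 7.39. The acid-sensitive KCNK3 and KCNK9 had means of 4.74 ± 0.731 and 1.54 ± 0.327 FPKM (SD, n = 6). No gene of this class separated the stages.

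Calcium- and sodium-activated potassium channels shape the afterpotentials that follow a spike or a burst. KCNMA1, the pore of the large-conductance calcium-activated channel, had 11.6, 10.8 and 11.2 FPKM in the pubertal and 10.7, 11.2 and 10.4 in the prepubertal libraries and was among the steadiest channel genes, with a CV of 3.87%. Its neuronal beta subunit KCNMB4 varied more, from 8.43 to 15.1 FPKM, with the widest range inside the pubertal stage. The small-conductance channels KCNN3 and KCNN2 had means of 5.62 ± 0.362 and 4.55 ± 0.479 FPKM (SD, n = 6), with overlapping stages.

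KCNMB1, the beta subunit of the same channel known from smooth muscle and named here after its values were seen, had 1.39, 0.970 and 2.46 FPKM in the pubertal and 0.465, 0.249 and 1.29 FPKM in the prepubertal libraries. Pubertal replicate 2 lay under prepubertal replicate 3, so the stages overlapped. The log2 fold change was 0.65 (SE 0.27) with an adjusted limma p of 0.946. RGS5, a marker of the mural cells of blood vessels, had 68.7, 62.6 and 93.2 FPKM in the pubertal and 43.6, 58.1 and 55.6 in the prepubertal libraries. The summed markers of endothelium and mural cells, of which 5 of 6 had values, lay between 96.3 and 140.8 FPKM in the pubertal libraries. In the prepubertal libraries they lay between 71.4 and 93.5. RGS5 held most of that sum, and the other markers, PDGFRB, PECAM1, FLT1 and CDH5, each overlapped between the stages. The part of vessel cells in the KCNMB1 values was not tested.

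Among the calcium channel pore subunits the presynaptic N-type CACNA1B (8.44 ± 0.470 FPKM; SD, n = 6) and P/Q-type CACNA1A (7.35 ± 1.10) were the most abundant. The L-type subunits CACNA1D and CACNA1C stood at 2.86 ± 0.426 and 2.82 ± 0.597 FPKM, and CACNA1I, a low-threshold T-type subunit, at 2.69 ± 0.301. CACNA1G, the T-type subunit that supports burst firing, had 2.91, 4.30 and 4.72 FPKM in the pubertal and 2.83, 3.16 and 3.41 in the prepubertal libraries. Pubertal replicates 2 and 3 were above all prepubertal libraries and replicate 1 was among them.

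The alpha2delta and beta subunits of calcium channels lay above the pores in summed level, and the gamma subunits under them. CACNA2D1, the alpha2delta subunit that traffics calcium channels and binds gabapentin, had 60.7, 50.5 and 53.6 FPKM in the pubertal and 57.5, 63.1 and 53.8 in the prepubertal libraries, second only to SCN2B in mean level. CACNA2D3 followed with 23.3, 18.7 and 16.6 against 24.9, 24.9 and 21.6 FPKM, where pubertal replicate 1 lay inside the prepubertal range. Of the cytoplasmic beta subunits, CACNB3 had 25.5 ± 2.37 and CACNB4 20.4 ± 2.17 FPKM (SD, n = 6). Of the gamma subunits, CACNG2, or stargazin, which escorts AMPA receptors, had 6.42 ± 0.667 FPKM and CACNG7 5.58 ± 0.913.

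HCN2 made up most of the HCN signal, between 71.2% and 80.8% in each library, with 19.1, 27.2 and 19.2 FPKM in the pubertal and 20.7, 19.4 and 24.0 in the prepubertal libraries. HCN4, the channel of cardiac and thalamic pacemaking, stood at 1.35 ± 0.259 FPKM (SD, n = 6), with overlapping stages. HCN3 had 2.37, 2.24 and 2.38 FPKM in the pubertal and 2.71, 2.65 and 2.76 in the prepubertal libraries. The stages of HCN3 did not overlap, but the difference was small, with a log2 fold change of -0.16 (SE 0.10) and an adjusted limma p of 0.962.

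Over the whole set, no channel gene passed an adjusted p of 0.05 in limma, as was the case for all 16397 genes tested (0.0%). At an unadjusted p under 0.05 there were 4 of 111 channel genes (3.60%), against 5.16% of all genes tested. KCNJ12 and KCNMB1 were higher and SCN2B and KCNA4 lower in the pubertal goats. The 2 higher genes compare with 3.51% of all genes called in that direction and the 2 lower ones with 1.65%. That split depended on the scaling, since 454 genes were higher and 407 lower after each library was centred on its median, in place of 575 and 271, and the channel genes became 0 higher and 4 lower after quantile normalization.

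The libraries of the stages did not overlap in 8 channel genes (7.21%), against 9.75% of all genes tested. KCNJ12 and KCNG4 were higher (5.91% of all genes were apart in that direction), and SCN2B, KCNA4, HCN3, KCNB2, KCNH7 and KCNIP2 were lower (3.84%). The 4 genes of these not yet described were singled out only because their stages do not overlap. KCNB2, a delayed rectifier subunit, had 3.07, 3.82 and 3.87 FPKM in the pubertal against 4.13, 4.56 and 4.10 in the prepubertal libraries, and KCNH7, of the ERG family, 5.91, 4.86 and 5.42 against 5.98, 6.12 and 6.10. KCNIP2 had 34.8, 34.7 and 34.0 FPKM against 35.5, 37.2 and 35.1, and KCNG4, a modifier subunit without current of its own, 0.164, 0.196 and 0.290 against 0.150, 0.0462 and 0.123. Their log2 fold changes were -0.20, -0.15, -0.06 and 0.14, in the order named, and none had an unadjusted limma p under 0.05. Most of these separations depended on how the libraries were scaled. After rescaling to equal sums without the most abundant transcript, KCNA4, KCNJ12, KCNB2, KCNH7 and KCNIP2 overlapped between the stages. KCNG4 overlapped after centring on the library median, and KCNIP2 after quantile normalization. SCN2B and HCN3 stayed apart in each of these settings.

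The log2 fold change was under 0.2 in size in 94 of the 111 channel genes (84.7%), against 81.1% of all genes tested, and 100 of the 111 lay between the 5th and 95th percentile of all genes (-0.22 and 0.35). There were 52 positive and 59 negative values with a median of -0.003, against -0.001 for all genes tested. By class, 10 of 13 inward rectifiers were positive, with a median of 0.11, and 6 of 7 sodium pore subunits negative, with a median of -0.08. All 4 calcium beta subunits (median -0.09) and all 3 tested alpha2delta subunits (median -0.08) had negative values. No gene of these classes passed the adjusted threshold. Scaling to the neuronal markers gave medians of 0.09, 0.07 and 0.09 for the sodium pore, calcium beta and alpha2delta classes. That of the inward rectifiers was then 0.27 and that of all genes 0.15. As this scaling multiplies all genes of a library by the same factor, the change of sign in the former classes is no separate result. Without that scaling, the medians of the Kv pore (-0.01), Kv accessory (0.00) and two-pore-domain (0.00) classes were near 0. That of the sodium beta subunits was -0.13 over 4 genes and that of the calcium pore subunits 0.10 over 7, the latter going to -0.002 without pubertal replicate 3.

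**Figure D3:**
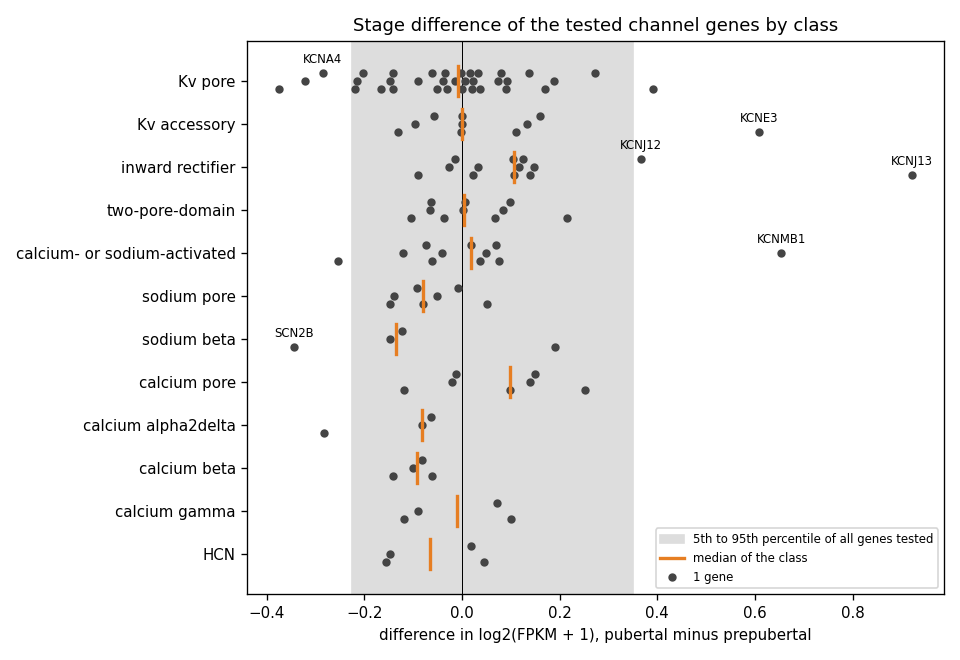
Difference in log2(FPKM + 1), pubertal minus prepubertal, of the 111 tested channel genes by class, with 1 point per gene, an orange line at the class median and a grey band from the 5th to the 95th percentile of all genes tested. Most points lie inside the band, 100 of 111, and the labelled genes are described with their values in the text. KCNG1 (-0.37, the lowest), KCNS2 (-0.32), CACNA2D3 (-0.28), KCNN4 (-0.25) and KCNG2 (0.39) also lie outside it without a label. None of these had an unadjusted limma p under 0.05.

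Genes encoded side by side were compared, since duplicated channel genes often lie together. There were 15 neighbouring pairs of channel genes in the RefSeq gene order, of which both genes were tested in 8, and the log2 fold changes had the same sign in 5 of these. SCN3A and SCN2A, neighbours in the sodium channel cluster, had -0.14 and -0.15, and the neighbours KCNJ10 and KCNJ9 had 0.11 and 0.12. KCNMB1 and its neighbour KCNIP1 differed, with 0.65 and 0.00.

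The spread between goats was also compared with that of other genes. The median CV of the 101 channel genes with a mean of at least 1 FPKM was 13.8%, against 11.4% for all genes at that level, and 11 of the 101 had a CV over 25%, against 12.3% of all genes. Some genes of different families shared the goats in which they were low. The Kv beta subunit KCNAB3 (4.36 and 4.35 FPKM), the inward rectifier KCNJ4 (2.42 and 2.35) and the small-conductance channel KCNN1 (1.88 and 1.95) each had their lowest 2 values in pubertal replicate 1 and prepubertal replicate 2, while KCNMB4 had its highest 2 values there (15.1 and 14.2). These genes were chosen after their values were seen, and the pattern crosses the stages.

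One library weighed on the comparison more than the others. Without pubertal replicate 1, 16 of 111 channel genes (14.4%) had an unadjusted limma p under 0.05, against 13.5% of all genes tested in the same setting, and the smallest adjusted p was 0.291. The 11 lower genes were then CACNA2D3, KCNS3, SCN2B, KCNA4, KCNV1, SCN2A, CACNB4, SCN3B, KCNC2, SCN3A and KCNIP4, and KCNE3, KCNJ12, CACNA1G and KCNQ5 were among the 5 higher ones. Pubertal replicate 1 was the pubertal library with the highest SCN2A, SCN3A, SCN3B and CACNA2D1. Without pubertal replicate 3, the library with the high TTR, SCN2B alone remained (0.901%, against 4.05% of all genes).

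A sum over transcripts can hide transcripts that differ in opposite directions, so the 142 channel transcripts that reached a mean of 0.1 FPKM were tested singly. None passed an adjusted p of 0.05 in limma (0.0% of all 23821 transcripts tested), and 4 had an unadjusted p under 0.05, against 4.87% of all transcripts. Of the 142, 107 had a log2 fold change under 0.2 in size, against 70.4% of all transcripts. The stages did not overlap in 8 channel transcripts, against 9.56% of all, with 3 higher (5.52% of all transcripts) and 5 lower (4.04%) in the pubertal goats. Of the 4, besides the single transcript of SCN2B, the KCNE3 transcript XM_005689971.2 was higher in the pubertal libraries with overlap, and the others were a pair of transcripts of CACNA1D, the L-type subunit that opens near the resting potential and supports pacemaking.

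The CACNA1D transcript XM_013973566.1 had 1.04, 1.34 and 1.43 FPKM in the pubertal and 0.379, 0.310 and 0.781 FPKM in the prepubertal libraries, without overlap. Its log2 fold change was 0.62 (SE 0.18) with an adjusted limma p of 0.944. The transcript XM_013973565.1 had 0.000195, 0.134 and 0.410 FPKM in the pubertal and 0.899, 0.938 and 0.398 FPKM in the prepubertal libraries, with a log2 fold change of -0.56 (SE 0.20) and an adjusted limma p of 0.972. Pubertal replicate 3 lay above prepubertal replicate 3, so these overlapped. The sum over the 6 transcripts of the gene was 2.81, 2.72 and 3.68 FPKM in the pubertal and 2.41, 2.76 and 2.79 in the prepubertal libraries. The former transcript took 36.9%, 49.3% and 38.9% of the gene in the pubertal and 15.7%, 11.2% and 28.0% in the prepubertal libraries. With 8455 and 8479 nt these transcripts are nearly equal in length, and how reads common to both were divided was not tested.

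**Figure D4:**
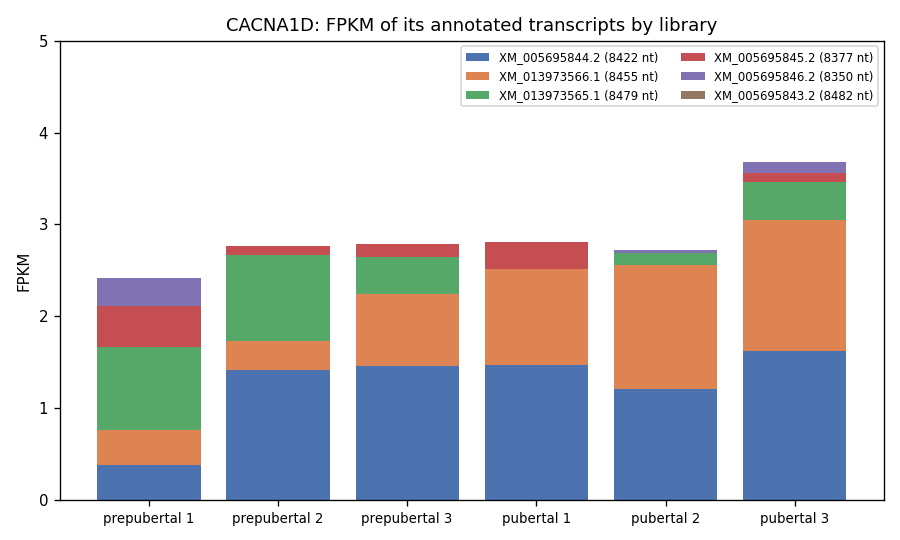
FPKM of the annotated CACNA1D transcripts stacked by library, the 3 prepubertal libraries on the left and the 3 pubertal on the right. The height of the bars is similar in 5 libraries, between 2.41 and 2.81, and 3.68 in pubertal replicate 3, while XM_013973566.1 (orange) is larger and XM_013973565.1 (green) mostly smaller in the pubertal libraries.

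Among the 18 channel genes with at least 2 tested transcripts, the transcript with the highest mean differed between the stages in 3, CACNB2, KCNE3 and KCNK2. In each of them, goats of the same stage differed in their leading transcript in at least 1 stage. For KCNK2, XM_013970432.1 took 79.6% of the gene in pubertal replicate 3 but between 15.9% and 36.2% in the other 5 libraries. For KCNE3, XM_005689971.2 took 100% of the gene in prepubertal replicate 1 and 0% in prepubertal replicate 3. For CACNB2, goats of the same stage each had a different leading transcript among its 5, and the largest share of any was 43.1%, in prepubertal replicate 2.

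Genes tied to these channels or to related currents were examined as a list of 52 gene symbols, of which 49 had values and were tested. None passed an adjusted p of 0.05 in limma, 2 were higher and 1 lower in the pubertal goats at an unadjusted p under 0.05 (3.51% and 1.65% of all genes tested), and the list's median log2 fold change was -0.02. NALCN, the sodium leak channel that sets the resting excitability of neurons, had 25.8, 23.6 and 22.1 FPKM in the pubertal and 27.2, 29.4 and 30.5 FPKM in the prepubertal libraries. Its stages did not overlap, with a log2 fold change of -0.28 (SE 0.09) and an adjusted limma p of 0.849. STAC, an adaptor that binds L-type calcium channels, had 4.63, 3.05 and 3.96 FPKM against 2.63, 2.87 and 2.82, also without overlap, with a log2 fold change of 0.36 (SE 0.14) and an adjusted limma p of 0.938. The third gene, CNTN2, an adhesion protein of the juxtaparanode, overlapped between the stages at 21.0, 22.9 and 21.5 against 16.5, 15.5 and 21.2 FPKM. LGI1 and RIMS1 were lower in the pubertal libraries without overlap too, and neither had an unadjusted p under 0.05.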

How the data were processed

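The hypothalamus of 3 pubertal and 3 prepubertal goats was sequenced with 1 library each. According to the study's methods, the authors aligned strand-specific paired-end reads to the goat genome with TopHat and assembled transcripts with Scripture and Cufflinks. Their processing notes name Cufflinks 2.1.1 and Cuffdiff 2.1.1, and the genome build is not given in the sources used here. The authors deposited FPKM per mRNA transcript and library, without read counts, so that no count model or counting interval could be used. Columns of the deposited comparison (group FPKM, log2 fold change, p-value and q-value) and the lncRNA tables were not used. Of the per-sample columns of the mRNA table, 0 were left out.

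FPKM were summed by gene with the gene IDs and transcript lengths of the deposited comparison, and named from RefSeq (assembly ARS1.2, used for names and gene order), which matched 19083 of 20225 genes (94.4%). Stages were compared with limma 3.58.1 in R 4.3.3 (functions lmFit and eBayes, trended prior, two-sided tests) after adding 1 to the FPKM and taking log2, for every gene or transcript whose mean reached 0.1 FPKM, with Benjamini-Hochberg adjustment over all of them and a threshold of 0.05. This scale understates the change of low genes. An exact permutation test of 3 goats against 3 cannot give a p under 0.1. The fit was run on simulated data with changes larger than any seen in the channel genes, so its power for changes of their size was not tested. Tables and figures were made with Python 3.11.15, numpy 2.4.6, pandas 2.3.3 and matplotlib 3.10.9.

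The channel genes and the lists of partners and markers were chosen with earlier results of these data known. Genes named with values are the 2 most abundant of each class, genes of known use in hypothalamic or glial physiology, genes with an unadjusted p under 0.05 and no overlap, and genes whose leading transcript differed between the stages. KCNMB1, KCNE3, SCN4B, HCN3, KCNB2, KCNH7, KCNIP2, KCNG4, KCNAB3, KCNJ4, KCNN1 and CNTN2 fall outside this and were named after their values were seen. So were KCNG1, KCNS2, KCNN4 and KCNG2, and others named by their spread, by a single transcript or without pubertal replicate 1 or 3. Alternatives were a pseudocount of 0.1, no minimum or a minimum mean of 1 FPKM, quantile normalization, centring on the median, rescaling without the most abundant transcript, limma without a trend, the replicate number as a block, leaving out each library, and 3 other ways to take a gene's transcripts (only those of at least 300 nt, only coding ones, only the most abundant). Results that need a withheld item are not reported here.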

Additional observations from a re-analysis of the deposited data

How the results depend on the processing

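No channel gene, channel transcript or partner gene passed an adjusted p of 0.05 in limma under any of the alternatives run. Counts at an unadjusted p under 0.05 moved with single libraries. Leaving out 1 library at a time gave 1 to 16 channel genes (4 with all libraries), with the lowest count without pubertal replicate 3 and the highest without pubertal replicate 1, 3 to 12 channel transcripts (4 with all libraries), highest without pubertal replicate 1 and 8 without pubertal replicate 2 or prepubertal replicate 3, and 0 to 7 partner genes (3 with all libraries), 7 without pubertal replicate 1 and 0 without pubertal replicate 3 or prepubertal replicate 2. A minimum mean of 1 FPKM left 2 channel transcripts at that level. With the most abundant transcript in place of the sum, 9 of the 12 classes kept their rank by level, and KCNH7 reversed, with a log2 fold change of 0.10. The cause of these changes was not tested, beyond the smaller number of samples or transcripts that each setting holds.

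SCN2B had a log2 fold change between -0.39 and -0.17 over 18 alternatives and an unadjusted p under 0.05 in 17 of them, all but the scaling to neuronal markers, with adjusted p between 0.291 and 1. KCNA4 (-0.35 to -0.13) was under that level in 9 of 18, KCNJ12 (0.29 to 0.46) in 11 of 17, KCNMB1 (0.43 to 1.30) in 12 of 17, NALCN (-0.33 to -0.23) in 14 of 17 and STAC (0.25 to 0.49) in 10 of 17. The CACNA1D transcript XM_013973566.1 (0.53 to 1.29) was under it in 13 of 13 and XM_013973565.1 (-1.81 to -0.45) in 8 of 13. KCNJ13 ranged from 0.09 without pubertal replicate 3 to 1.38 without pubertal replicate 1.

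The labels do not say whether goats of the same replicate number were paired. Deviations of same-numbered goats had correlations of -0.02, -0.10 and 0.08, inside the range of differently numbered goats (-0.12 to 0.16). With 3 goats per stage these values cannot settle whether the goats were paired. With the replicate number as a block, 6 channel genes, 6 channel transcripts and 1 partner gene had an unadjusted limma p under 0.05, and 0 of each had an adjusted one. As the deposited values hold no counts, the depth per gene is unknown, and it limits the low genes and the transcripts of similar sequence most.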
